A study of Mus musculus with 12 samples.

Results

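The liver is the main site where surplus amino acids are degraded, and 38 genes for enzymes of amino acid catabolism and of the methionine cycle were followed in mouse liver. They were listed by the known function of their products, with earlier results of these data known, and all 38 were found among the 14188 genes of the protein-coding table. They fall into 9 groups by substrate: phenylalanine and tyrosine, tryptophan, histidine, serine with alanine and aspartate, lysine, the branched-chain amino acids, methionine with transsulfuration, glycine with glyoxylate, and proline. Of the 38 products, 22 were assigned to the cytosol and 15 to mitochondria, and Agxt was assigned to peroxisomes or mitochondria.

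RNA of liver tissue was sequenced from 6 mice of a PZH group and 6 mice of a control group. PZH is Pien Tze Huang, a traditional Chinese medicine, and CCl4 is carbon tetrachloride, a solvent that injures hepatocytes around the central vein after it is activated by cytochrome P450 enzymes. Both groups received CCl4 by intraperitoneal injection 2 times a week, at 10 µl of its mixture per g of body weight. PZH was given by gavage 1 time a day at 0.25 mg per g, and the control mice received double distilled water by the same route. The mice were males of 6 weeks at the start and were killed after 8 weeks. Their strain is C57BL/8 in the labels and C57BL/6J in the methods of the study. There was therefore no group without CCl4 in these libraries, and every difference below is between CCl4 with PZH and CCl4 alone.

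Amino acid catabolism starts with removal of the amino group, usually by an aminotransferase or a dehydratase, or with the oxygenation of an aromatic ring, and the carbon skeletons then enter the citric acid cycle, gluconeogenesis or ketone body formation. In the methionine cycle, methionine adenosyltransferase makes S-adenosylmethionine, methyltransferases such as glycine N-methyltransferase use it, and the homocysteine that remains is either methylated back to methionine or passed through transsulfuration to cysteine. Many of these genes are expressed far more strongly in hepatocytes than in other cells of the liver, and some are zoned along the axis from the portal vein to the central vein.

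Promoter windows were read for the members that the results turn on, from 250 bases before to 50 bases after the transcription start (RefSeq, GRCm38.p6, strand of the gene). Bhmt and Prodh are shown because they had the highest log2 fold changes of the members matched to a window, Hgd because it rose by 2-fold and holds matches to a C/EBP motif, and Cbs because all of its PZH values lay below all of its control values. Capitals mark the base at the annotated start and, in the Hgd window, the motif matches. The Bhmt window is chr13:93637709-93638008 on the minus strand, the Prodh window chr16:18089141-18089440 on the minus strand, the Hgd window chr16:37579903-37580202 on the plus strand and the Cbs window chr17:31637156-31637455 on the minus strand. The RefSeq starts of Bhmt, Prodh and Cbs lie inside listed transcripts. Bhmt-201 begins at chr13:93637961, Prodh-201 at chr16:18089292 and Cbs-201 at chr17:31637238. Some bases printed before these 3 starts are therefore inside a transcript and not upstream of it.
Bhmt: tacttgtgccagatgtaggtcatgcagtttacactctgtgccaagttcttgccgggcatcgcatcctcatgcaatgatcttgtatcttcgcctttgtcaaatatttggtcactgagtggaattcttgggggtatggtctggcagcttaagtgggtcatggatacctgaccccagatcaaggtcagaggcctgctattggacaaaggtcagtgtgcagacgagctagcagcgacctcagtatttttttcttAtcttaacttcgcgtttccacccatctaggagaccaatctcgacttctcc
Prodh: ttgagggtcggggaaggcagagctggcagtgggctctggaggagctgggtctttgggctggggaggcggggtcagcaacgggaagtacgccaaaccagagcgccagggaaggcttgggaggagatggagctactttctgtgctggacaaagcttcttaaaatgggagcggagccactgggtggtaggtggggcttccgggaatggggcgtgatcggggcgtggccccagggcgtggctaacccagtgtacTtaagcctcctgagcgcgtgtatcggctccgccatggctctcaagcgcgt
Hgd: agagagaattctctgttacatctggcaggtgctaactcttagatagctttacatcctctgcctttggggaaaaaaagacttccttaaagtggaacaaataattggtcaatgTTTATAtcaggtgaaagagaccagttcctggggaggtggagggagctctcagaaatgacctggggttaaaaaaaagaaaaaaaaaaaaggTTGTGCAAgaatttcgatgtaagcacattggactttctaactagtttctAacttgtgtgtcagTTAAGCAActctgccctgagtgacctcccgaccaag
Cbs: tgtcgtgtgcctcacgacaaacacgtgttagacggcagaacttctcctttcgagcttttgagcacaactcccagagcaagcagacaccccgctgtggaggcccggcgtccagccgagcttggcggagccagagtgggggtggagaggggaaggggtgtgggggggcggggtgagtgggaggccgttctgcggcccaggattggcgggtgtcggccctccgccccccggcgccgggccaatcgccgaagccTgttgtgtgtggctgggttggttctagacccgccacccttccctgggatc

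Of the 38 members 31 were matched to a window, and Cth, Dbt, Gpt, Kynu, Mat1a, Sds and Sdsl were not. The 6 motifs searched on both strands were a CRE half-site (TGACG), an HNF4 site (CAAAGTCC), a C/EBP site (TTGCNNAA), a glucocorticoid receptor half-site (TGTTCT), an HNF1 half-site (GTTAAT) and a TATA box (TATAAA). Members were counted by gene, with a match in any of their windows, and all promoters by window, with 32851 windows of 27025 genes. The 2 percentages of a motif are therefore in different units. The CRE half-site was found in 2 of the 31 members (6.45%, against 20.8% of 32851 promoters), the C/EBP site in 3 (9.68% against 10.8%) and the glucocorticoid receptor half-site in 4 (12.9% against 19.0%). The HNF1 half-site was found in 4 (12.9% against 7.1%), the TATA box in 5 (16.1% against 13.6%) and the HNF4 site in 0 (against 1.42%). The 3 members with a C/EBP match were Aass, Hal and Hgd, and the 2 matches of Hgd lay on either side of its start. The windows of Bhmt, Prodh and Cbs, whose bases before the RefSeq start lie partly inside a listed transcript, held none of these letters. RefSeq starts of other members lie inside listed transcripts too, among them those of Tdo2 and Got2. The whole Tdo2 window, chr3:81975679-81975978, lies within Tdo2-201, which begins at chr3:81976202. The counted matches are therefore not all upstream of a transcript. These are matches of letters in a short window and say nothing of binding.

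Levels are given in FPKM (fragments mapped to a transcript, scaled by its length and by the depth of the library), summed over the listed protein-coding transcripts of a gene. Fold changes are PZH against control on the log2(FPKM + 1) scale with their standard error (SE), which understates the change of genes with low levels. A member was called higher or lower, and is said to have risen or fallen, at an adjusted p under 0.05 in limma over all 14188 genes. A second criterion, the one used in the study, asked for a 2-fold change with an unadjusted p under 0.05.

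Some facts of all libraries touch these values. The 12 mice correlated with each other at r of 0.931 to 0.985, no pair of libraries was identical, and nothing in the sources divides the mice into batches. Over all genes the median log2 fold change was -0.11, and division by a median-ratio scale factor moved it to -0.00, so the values under that scaling are given beside the main ones. Alb alone held 10.2% to 12.7% of all FPKM under PZH and 5.54% to 8.86% under CCl4 alone. The hepatocyte markers, 10 of 10 listed, summed to 51431 to 67841 FPKM in the PZH mice and 34430 to 47644 FPKM in the controls, with 4 called higher and 2 lower (Fgb and Hnf4a). Most of this sum was Alb, with a mean of 38437 FPKM of 57785 FPKM in the PZH mice and 24059 FPKM of 42044 FPKM in the controls. Over the 10 markers the median log2 fold change was 0.20, with 7 above 0. The pericentral hepatocyte markers, 9 of 10 listed, summed to 1227 to 2337 FPKM against 368 to 645 FPKM. Of them 7 were called higher, and the largest log2 fold change was that of Cyp2e1 at 2.24. Glul and Oat were not called, with log2 fold changes of 0.32 and -0.49. Most of the sum came from Cyp2e1, Cyp1a2 and Rgn. Their means were 972, 405 and 358 FPKM of 1870 FPKM in the PZH mice. In the controls they were 206, 95.9 and 133 FPKM of 545 FPKM. The periportal markers summed to 1913 to 2759 FPKM against 1746 to 2019 FPKM, with 2 of 10 called higher and 2 lower. Ass1 had a mean of 735 FPKM of 2257 FPKM in the PZH mice and 362 FPKM of 1910 FPKM in the controls. Over the 10 periportal markers the median log2 fold change was 0.05, with 6 above 0. The ranges overlapped for cholangiocytes (71.8 to 140 FPKM against 104 to 166 FPKM, 0 of 7 called higher and 2 lower), for stellate cells and myofibroblasts (112 to 191 FPKM against 110 to 183 FPKM, 1 of 10 higher and 5 lower) and for macrophages (389 to 585 FPKM against 381 to 501 FPKM, 3 of 10 higher and 3 lower). They overlapped too for sinusoidal endothelial cells (91.6 to 115 FPKM against 100 to 113 FPKM, 0 of 8 higher and 2 lower) and for lymphocytes and neutrophils (16.4 to 132 FPKM against 20.6 to 65.8 FPKM, 0 of 10 called). Each sum is weighted to its most abundant markers, so overlap of a sum does not hold for every marker in it. Spp1, which was not called, made up most of the cholangiocyte sum. Its means were 94.1 FPKM of 107 FPKM in the PZH mice and 121 FPKM of 142 FPKM in the controls. The 2 cholangiocyte markers called lower, Sox9 and Cldn4, showed no overlap. No listed marker was below 0.1 FPKM in all 12 mice. In bulk tissue, fewer cells of a type and less RNA per cell cannot be told apart, and the part of these markers in the results below was not tested.

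Most of the 38 genes were higher in the PZH mice. At the adjusted threshold 28 members rose, 4 fell (Sdsl, Cbs, Gldc and Gpt2) and 6 were not called (Tat, Ftcd, Gnmt, Got1, Got2 and Bckdha), where 12.7% of all genes were called higher and 32.1% lower. Under median-ratio scaling 31 members were called higher (19.8% of all genes) and 1 lower, Sdsl (19.3% of all genes). The median log2 fold change of the 38 was 0.67, or 0.86 with median-ratio scaling, and 33 of the 38 values were above 0. By the 2-fold criterion 7 members rose (1.52% of all genes) and 0 fell (2.5% of all genes). These were Bhmt, Cth, Prodh, Hpd, Tdo2, Afmid and Hgd, and under median-ratio scaling there were 14 (2.46% of all genes). The count was 4 without control 1 and also without control 4. Just under the 2-fold criterion were Amdhd1 with a log2 fold change of 0.98 and Sds with 0.96. All 6 PZH values lay above all 6 control values in 15 members (6.46% of all genes), and all 6 lay below in 1 member, Cbs (17.9% of all genes).

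**Figure D1:**
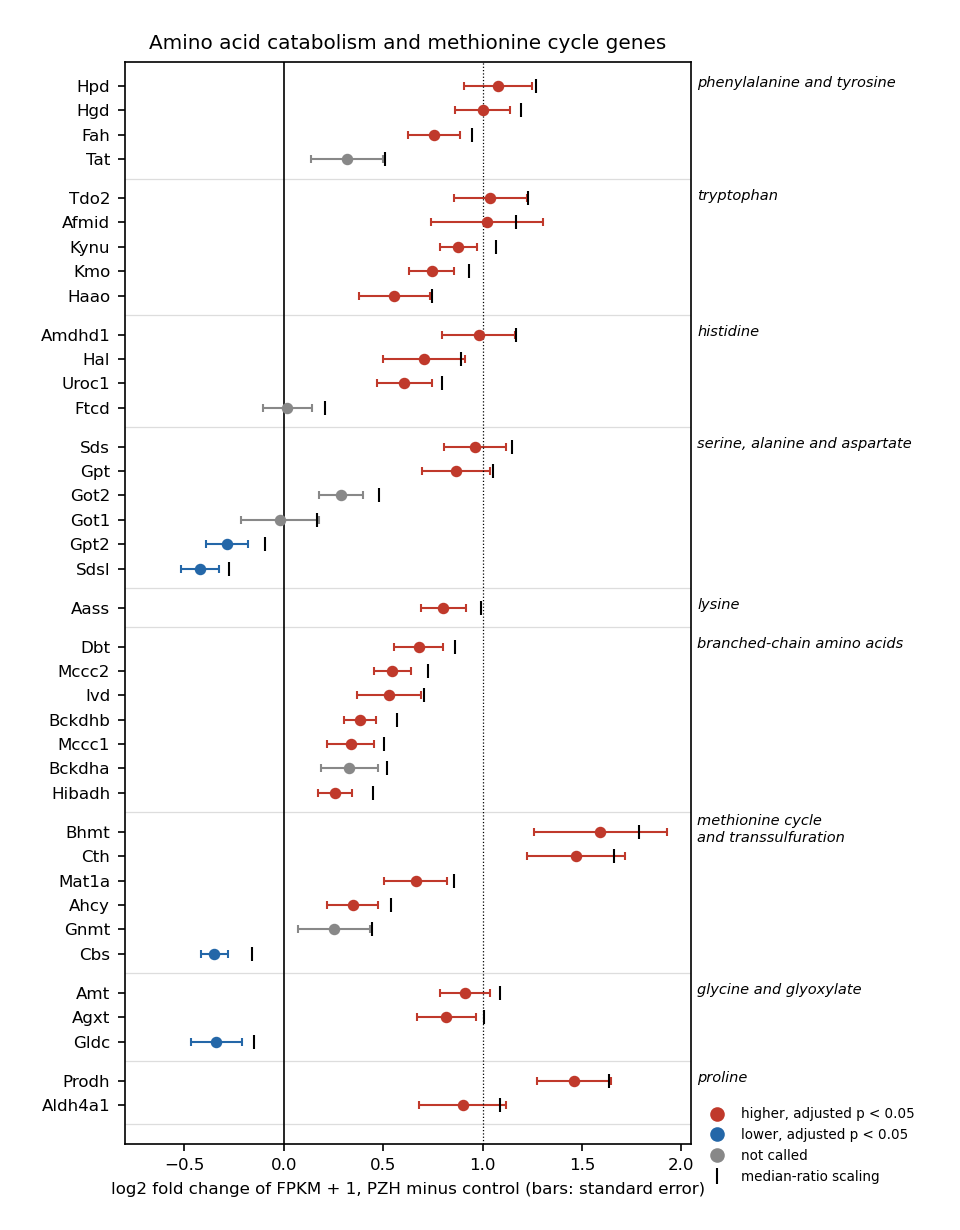
Log2 fold change of FPKM + 1, PZH minus control, for each of the 38 genes (points, with bars for the SE, n = 6 mice a group), grouped by substrate and coloured by the call at an adjusted p under 0.05. Black ticks give the value under median-ratio scaling, where 31 genes were called higher and only Sdsl lower, and the dotted line marks a log2 fold change of 1.

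In level, the members differed widely. In the control mice the highest group means belonged to the methionine cycle, with Mat1a at 368 FPKM, Bhmt at 350 FPKM and Gnmt at 339 FPKM, which lay within their SDs of 64 FPKM, 131 FPKM and 44.0 FPKM. The lowest control means were those of Afmid at 2.72 FPKM and Sdsl at 3.81 FPKM. In the PZH mice Bhmt was highest at 1117 FPKM and was followed by Mat1a at 590 FPKM and Hpd at 532 FPKM. The 38 members together held 1.17% to 2.09% of all FPKM in a PZH mouse and 0.861% to 1.21% in a control mouse. The ranges met only in PZH 2 (1.17%) and control 6 (1.21%).

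The mice of a group were not alike in these genes. PZH 2 had the lowest value of its group in 21 of the 38 members, and PZH 6 had the highest in 15. Among the controls, control 1 was lowest in 16 and control 4 in 13, while control 3 was highest in 17 and control 6 in 11. The median deviation of the 38 genes from their mean of 12 mice was -0.00 (log2) in PZH 2, 0.23 to 0.51 in the other PZH mice and -0.51 to -0.12 in the controls.

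**Figure D2:**
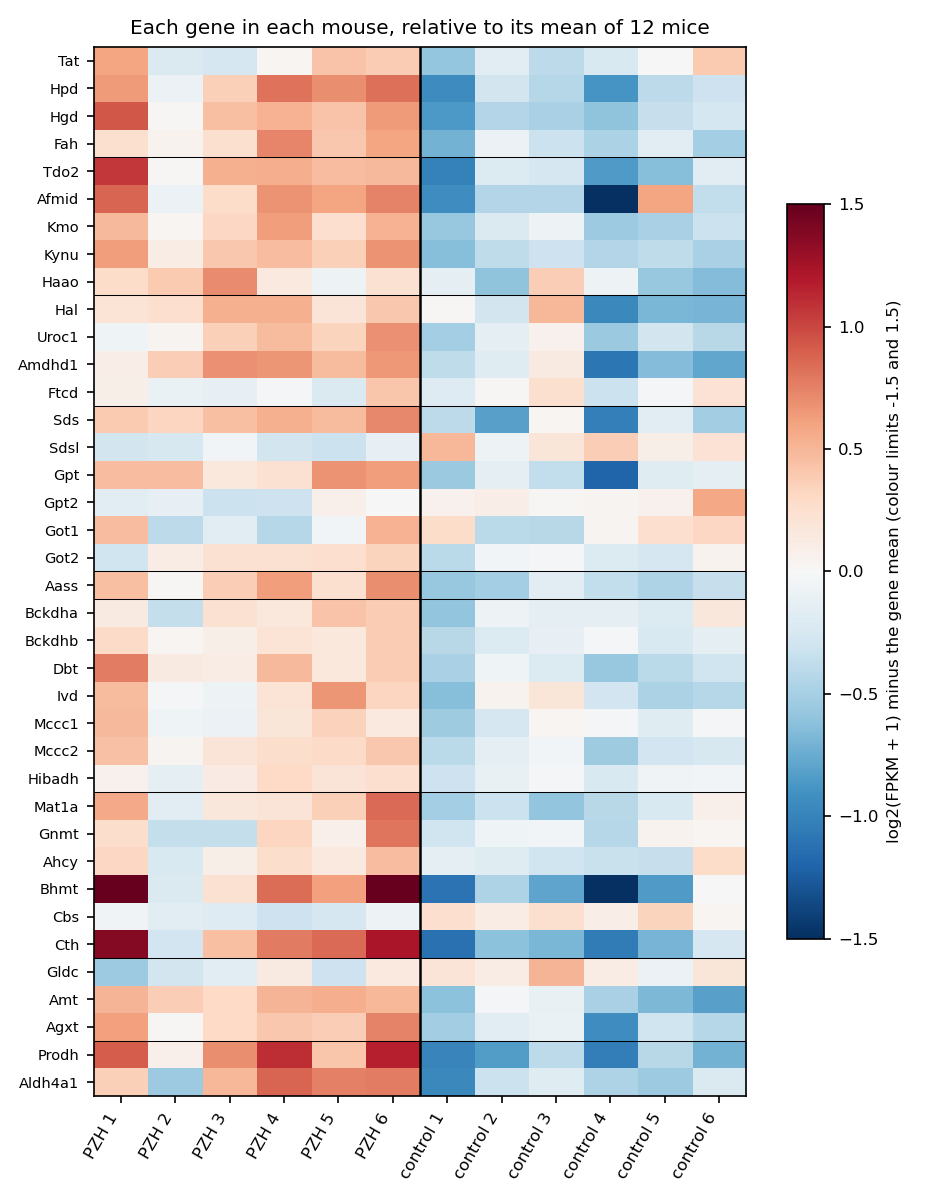
Log2(FPKM + 1) of each gene (rows, in order of substrate) in each mouse (columns) minus the mean of the gene over 12 mice, with the colour scale limited to -1.5 and 1.5. PZH 2 is the palest PZH column, with a median deviation of -0.00, and the rows of Sdsl, Cbs, Gldc and Gpt2 are the ones that fell, of which only Sdsl stayed called under median-ratio scaling.

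The methionine cycle and transsulfuration held the largest log2 fold changes of the 38 genes and also a fall. Bhmt (betaine-homocysteine methyltransferase, chr13:93616675-93637961) methylates homocysteine back to methionine with betaine. Its level was 494 FPKM at the lowest, 955 FPKM at the median and 1813 FPKM at the highest in the PZH mice, and 194 FPKM, 325 FPKM and 571 FPKM in the controls. Of the 6 PZH mice, 5 lay above the highest control, and PZH 2 lay within the control range. The log2 fold change of Bhmt was 1.59 (SE 0.34, adjusted p = 0.00197), and 1.80 without PZH 2. Cth (cystathionine gamma-lyase, chr3:157894248-157925077) releases cysteine in the last step of transsulfuration. Cth had 82.0 FPKM, 177 FPKM and 262 FPKM (lowest, median, highest) in the PZH mice and 45.5 FPKM, 61.7 FPKM and 83.6 FPKM in the controls. Again PZH 2 alone of the PZH mice fell within the control range. Its log2 fold change was 1.47 (SE 0.25, adjusted p = 0.000437).

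Cbs (cystathionine beta-synthase, chr17:31612623-31637238) catalyses the step before Cth, where homocysteine enters transsulfuration. It had 102 FPKM, 112 FPKM and 122 FPKM in the PZH mice and 129 FPKM, 143 FPKM and 160 FPKM in the controls, so the groups did not overlap. Cbs fell by 0.35 on the log2 scale (SE 0.07, adjusted p = 0.00146). Under median-ratio scaling its log2 fold change was -0.16 and was not called (adjusted p = 0.147). The neighbouring steps thus had opposite signs in both scalings, with the fall of Cbs called in 1 of them.

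The remaining members of the cycle changed less. Mat1a, the methionine adenosyltransferase of adult hepatocytes, had a mean of 590 ± 145 FPKM (SD, n = 6) in the PZH mice and 368 ± 64 FPKM (SD, n = 6) in the controls. It rose, with a change of 0.66 in log2 (SE 0.16, adjusted p = 0.00428). Ahcy, which hydrolyses S-adenosylhomocysteine, had a change of 0.35 in log2 (SE 0.13) with an adjusted p of 0.0409, close to the threshold, and the call was lost with 10 of the 12 mice left out in turn. Gnmt, the glycine N-methyltransferase that uses S-adenosylmethionine, was at 417 ± 133 FPKM and 339 ± 44.0 FPKM (SD, n = 6) and was not called (log2 fold change 0.25, SE 0.18, adjusted p = 0.28).

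In tyrosine degradation 3 of 4 members rose. Tat (tyrosine aminotransferase), which removes the amino group, had 234 FPKM, 322 FPKM and 419 FPKM in the PZH mice and 186 FPKM, 242 FPKM and 365 FPKM in the controls, with overlapping groups and no call (log2 fold change 0.32, SE 0.18, adjusted p = 0.171). Under median-ratio scaling it was called higher, at 0.51. Hpd (hydroxyphenylpyruvate dioxygenase) acts next and had 337 FPKM, 568 FPKM and 635 FPKM in the PZH mice and 186 FPKM, 270 FPKM and 294 FPKM in the controls. No control reached the lowest PZH mouse, and Hpd had a change of 1.08 in log2 (SE 0.17, adjusted p = 0.000305). Hgd (homogentisate dioxygenase), which opens the ring, had 135 FPKM, 186 FPKM and 255 FPKM against 72.4 FPKM, 96.0 FPKM and 111 FPKM, again without overlap. Its log2 fold change was 1.0 (SE 0.14, adjusted p = 0.000132). Fah (fumarylacetoacetate hydrolase), the last enzyme of the pathway, rose by less, with a change of 0.76 in log2 (SE 0.13, adjusted p = 0.000543) and no overlap. Whether Tat differed in its change from the later enzymes was not tested.

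All 5 members of the tryptophan to kynurenine route rose. Tdo2 (tryptophan dioxygenase), which opens the indole ring in hepatocytes, had 145 FPKM, 205 FPKM and 301 FPKM in the PZH mice and 70.5 FPKM, 106 FPKM and 129 FPKM in the controls. The groups did not overlap, and the log2 fold change was 1.04 (SE 0.18, adjusted p = 0.000597). Afmid (arylformamidase), which acts on the product of Tdo2, was expressed at a low level, with 3.51 FPKM, 6.45 FPKM and 7.83 FPKM against 0.707 FPKM, 2.55 FPKM and 6.25 FPKM. Of its 6 PZH mice, 3 lay within the control range, and it rose with a change of 1.02 in log2 (SE 0.28, adjusted p = 0.0106). Kmo (kynurenine monooxygenase) and Kynu (kynureninase) rose without overlap, with log2 fold changes of 0.74 (SE 0.11, adjusted p = 0.000245) and 0.88 (SE 0.09, adjusted p = 2.85e-05). Haao, which makes the precursor of quinolinate, rose by 0.56 (SE 0.18, adjusted p = 0.0221) on the log2 scale with overlapping groups, and its call was lost without control 5 (adjusted p = 0.0509) and without control 6 (adjusted p = 0.0505).

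Among the enzymes of histidine degradation, which converts histidine to glutamate, 3 of 4 rose. Amdhd1 (imidazolonepropionase) had 34.5 FPKM, 48.2 FPKM and 52.6 FPKM in the PZH mice and 14.6 FPKM, 22.3 FPKM and 35.5 FPKM in the controls. A single PZH mouse lay within the control range, and the log2 fold change was 0.98 (SE 0.18, adjusted p = 0.000914). Hal (histidine ammonia-lyase), the first enzyme, and Uroc1 (urocanase), the second, had log2 fold changes of 0.70 (SE 0.21, adjusted p = 0.0146) and 0.61 (SE 0.14, adjusted p = 0.00337). Hal and Amdhd1 are neighbours on chromosome 10, 4033 bases apart and on opposite strands. Ftcd, which transfers the last one-carbon group to folate, had 39.6 ± 6.84 FPKM and 39.1 ± 6.06 FPKM (SD, n = 6) and was not called (log2 fold change 0.02, SE 0.12).

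The serine, alanine and aspartate group held 2 rises and 2 falls among its 6 members. Sds (serine dehydratase, chr5:120476526-120483932), which turns serine into pyruvate, had 34.5 FPKM, 38.3 FPKM and 46.1 FPKM in the PZH mice and 12.9 FPKM, 19.8 FPKM and 28.0 FPKM in the controls. It rose without overlap (log2 fold change 0.96, SE 0.16, adjusted p = 0.000352). Its homologue Sdsl (serine dehydratase-like, chr5:120458186-120472810) lies 3715 bases away on the opposite strand and is transcribed in the other direction. Sdsl had 2.31 FPKM, 2.45 FPKM and 3.02 FPKM against 2.90 FPKM, 3.73 FPKM and 4.83 FPKM, with 5 of 6 PZH mice below the lowest control. Sdsl fell by 0.42 on the log2 scale (SE 0.09, adjusted p = 0.00287), and stayed called under median-ratio scaling (log2 fold change -0.28, adjusted p = 0.0381). On the scale of FPKM without a pseudocount, the ratio of its group means was 0.675.

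The aminotransferases of this group showed a similar division. Gpt, the cytosolic alanine aminotransferase, had 33.3 FPKM, 41.5 FPKM and 48.0 FPKM in the PZH mice and 12.4 FPKM, 24.5 FPKM and 27.0 FPKM in the controls, without overlap. It rose, with a change of 0.87 in log2 (SE 0.17, adjusted p = 0.00126), but its most abundant transcript alone gave 0.51 and was not called (adjusted p = 0.249). Gpt2, the mitochondrial isoenzyme, had 77.8 FPKM, 88.2 FPKM and 103 FPKM against 99.0 FPKM, 102 FPKM and 146 FPKM. It fell by 0.29 on the log2 scale (SE 0.11, adjusted p = 0.0412), and the call was lost under median-ratio scaling (log2 fold change -0.10) and with 8 of the 12 mice left out in turn. The aspartate aminotransferases were not called. Got1, the cytosolic form, had 24.9 ± 7.64 FPKM and 24.8 ± 5.67 FPKM (SD, n = 6) with a change of -0.02 in log2 (SE 0.20), which turned to 0.17 under median-ratio scaling. Got2, the mitochondrial form, was higher in 5 of 6 PZH mice than in any control, at 0.29 (SE 0.11, adjusted p = 0.0519), and was called under median-ratio scaling.

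**Figure D3:**
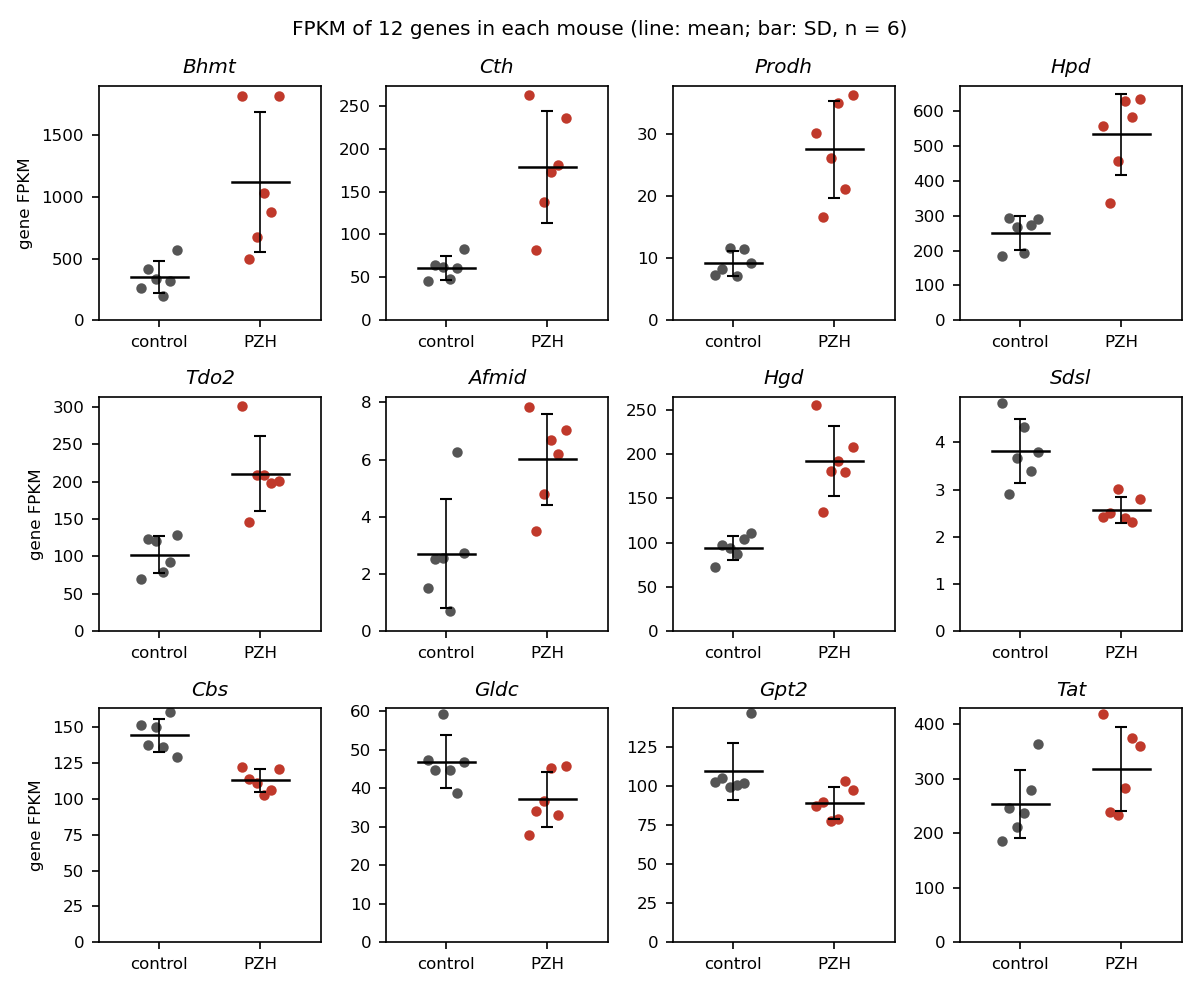
FPKM of 12 genes in each mouse (points), with the mean (line) and SD (bar) of 6 mice a group: the 7 genes that rose by 2-fold, the 4 that fell at an adjusted p under 0.05, and Tat, which was not called. Hpd, Tdo2, Hgd and Prodh show no overlap, the lowest Bhmt and Cth values of the PZH group lie within the control range, and Cbs, Gldc and Gpt2 were not called under median-ratio scaling.

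Within a mouse, the plain ratio of the FPKM of a pair of genes does not depend on a scale factor of the library, and with a pseudocount it depends on it weakly unless a level is low, as that of Sdsl. On this ground 8 pairs of isoenzymes, subunits or neighbouring steps were compared as log2 ratios of FPKM + 1 between the groups by permuting the group labels of the mice in every possible way (an exact permutation test, two-sided), with Benjamini-Hochberg adjustment over the 8. Ratios below are of plain FPKM and differences are on the log2(FPKM + 1) scale. The ratio of Gpt to Gpt2 was 0.429 to 0.479 (median 0.465) in the PZH mice and 0.123 to 0.257 (median 0.213) in the controls, a difference of 1.15 in log2 (exact permutation p = 0.0022, the smallest these mice allow, adjusted p = 0.0058). The PZH mice were close together in this ratio, with an SD of 0.06 in log2 against 0.38 in the controls. The ratio of Sds to Sdsl was 12.5 to 16.7 (median 15.8) against 3.0 to 7.64 (median 5.11), a difference of 1.39 in log2 with the same exact p, and of 1.54 with a pseudocount of 0.1. The ratio of Cth to Cbs had medians of 1.70 and 0.399 and a difference of 1.82 in log2, also with the same exact p and without overlap. In each of these 3 pairs every PZH mouse, PZH 2 included, lay above every control. The members and the pairs were chosen with earlier results of these data known. Sds, Gpt and Cbs each separated the groups without a partner, so these p-values are not support independent of the levels above.

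Mat1a was also compared with Mat2a, the methionine adenosyltransferase of other tissues and of dividing hepatocytes, which was at 20.5 FPKM in the PZH mice and 20.8 FPKM in the controls. The ratio of Mat1a to Mat2a had medians of 27.4 and 18.6, with overlap, and a difference of 0.71 in log2 (exact permutation p = 0.0108, adjusted p = 0.0216). Bhmt2, a homologue of Bhmt that lies 17758 bases from it on the same strand, rose with it (log2 fold change 1.46, SE 0.19, adjusted p = 8.09e-05). Fragments could have been divided between Bhmt and Bhmt2 in the quantification, so each level is uncertain to that extent. The difference in the Bhmt to Bhmt2 ratio was 0.13 in log2 (exact permutation p = 0.712). The other differences did not pass the threshold either, with -0.31 for Got1 to Got2 (exact permutation p = 0.305), -0.05 for Bckdha to Bckdhb (p = 0.656) and -0.21 for Mccc1 to Mccc2 (p = 0.0866).

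**Figure D4:**
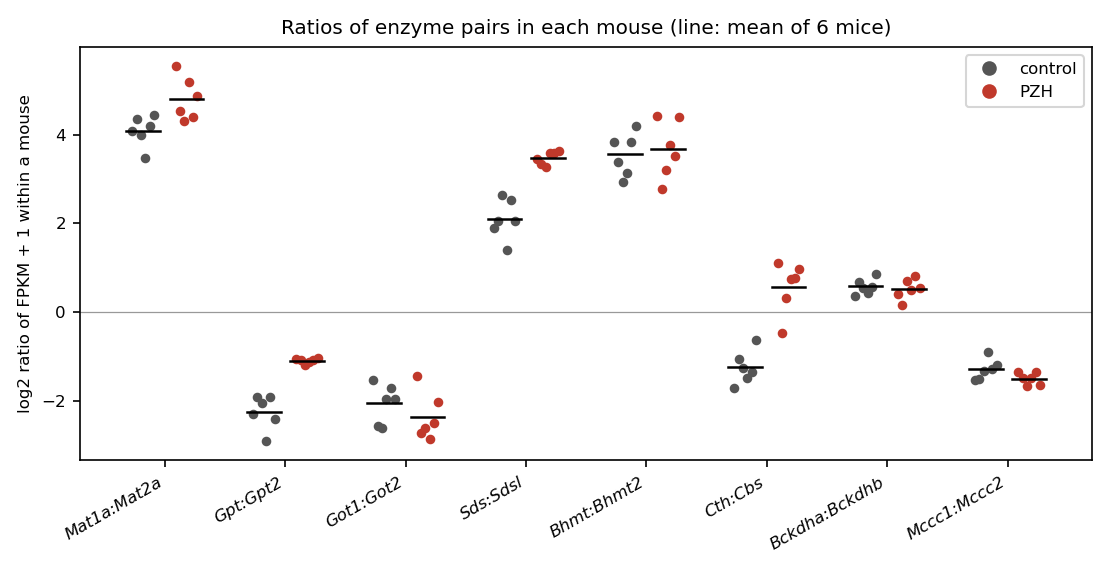
Log2 ratio of FPKM + 1 of 8 gene pairs within each mouse (points; line, mean of 6 mice). The groups do not overlap for Gpt:Gpt2, Sds:Sdsl and Cth:Cbs, where the PZH mice lie higher by 1.15, 1.39 and 1.82, and they overlap for the other 5 pairs.

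Proline degradation, a pair of mitochondrial steps to glutamate, rose. Prodh (proline dehydrogenase, chr16:18071725-18090203) had 16.6 FPKM, 28.1 FPKM and 36.3 FPKM in the PZH mice and 7.14 FPKM, 8.78 FPKM and 11.7 FPKM in the controls. No values overlapped, and the log2 fold change was 1.46 (SE 0.19, adjusted p = 7.76e-05). Aldh4a1, which oxidises the product of Prodh to glutamate, rose with a change of 0.90 in log2 (SE 0.22, adjusted p = 0.00503), with PZH 2 at 28.2 FPKM inside the control range and the other PZH mice above it.

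In the glycine and glyoxylate group, Amt, the aminomethyltransferase of the glycine cleavage system, had 14.7 FPKM, 17 FPKM and 17.6 FPKM in the PZH mice and 6.23 FPKM, 7.71 FPKM and 11.5 FPKM in the controls. It rose without overlap (log2 fold change 0.91, SE 0.13, adjusted p = 0.000133). Gldc, the decarboxylase of the same system, had 27.9 FPKM, 35.4 FPKM and 45.9 FPKM against 38.7 FPKM, 45.8 FPKM and 59.3 FPKM. Gldc fell by 0.34 on the log2 scale (SE 0.13, adjusted p = 0.0452), a call close to the threshold that was lost under median-ratio scaling (log2 fold change -0.15) and with 9 of the 12 mice left out in turn. Agxt, which turns glyoxylate into glycine, rose without overlap, with a change of 0.82 in log2 (SE 0.15, adjusted p = 0.000737).

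Lysine degradation was represented by Aass (aminoadipate-semialdehyde synthase), the bifunctional enzyme of its first steps. It had 59.97 FPKM, 79.0 FPKM and 96.8 FPKM in the PZH mice and 39.6 FPKM, 44.0 FPKM and 53.1 FPKM in the controls, and rose without overlap (log2 fold change 0.80, SE 0.11, adjusted p = 0.000143).

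The branched-chain amino acid genes changed by less. All 7 had positive log2 fold changes, from 0.26 to 0.68 with a median of 0.38, and 6 were called higher. Dbt, the transacylase core of the branched-chain keto acid dehydrogenase, had 24.5 FPKM, 27.6 FPKM and 39.2 FPKM in the PZH mice and 15.0 FPKM, 17.5 FPKM and 21.6 FPKM in the controls, and rose without overlap (log2 fold change 0.68, SE 0.12, adjusted p = 0.0007). Bckdhb, the beta subunit of its decarboxylase, rose without overlap by 0.38 (SE 0.08, adjusted p = 0.00177), and the alpha subunit Bckdha was not called (0.33, SE 0.14, adjusted p = 0.0736). On the leucine branch, Ivd (isovaleryl-CoA dehydrogenase) rose by 0.53 (SE 0.16, adjusted p = 0.0171) and the methylcrotonyl-CoA carboxylase subunits Mccc1 and Mccc2 by 0.34 (SE 0.12, adjusted p = 0.0344) and 0.55 (SE 0.09, adjusted p = 0.000513). Hibadh, of the valine branch, rose by 0.26 (SE 0.08, adjusted p = 0.0242), and leaving out single mice ended the call of Hibadh for 4 of them and of Mccc1 for 7.

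By compartment, 16 of the 22 cytosolic members rose and 2 fell, with a median log2 fold change of 0.73, and 11 of the 15 mitochondrial members rose and 2 fell, with a median of 0.53. Medians by substrate were 0.88 for phenylalanine and tyrosine, 0.88 for tryptophan, 0.66 for histidine, 1.18 for proline, 0.80 for lysine (Aass alone), 0.38 for the branched-chain amino acids, 0.14 for serine with alanine and aspartate, 0.50 for methionine with transsulfuration and 0.82 for glycine with glyoxylate. The differences between these medians were not tested.

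Among the other genes of the same pathways, 48 of 77 listed genes were called higher (12.7% of all genes), 9 lower (32.1% of all genes) and 20 not, with a median log2 fold change of 0.39. Of the 9 that rose by 2-fold, 8 were Ido2 (1.94), Gamt (1.51), Bhmt2 (1.46), Dhtkd1 (1.13), Aldh1l1 (1.11), Hykk (1.07), Ppm1k (1.05) and Aadat (1.01), each value a log2 fold change. Ido2 was uneven within the PZH group (SE 0.60, adjusted p = 0.019). PZH 1 and PZH 2 had 3.46 and 3.56 FPKM, inside the control range of 0.799 to 12.1 FPKM. The other PZH mice had 21.3 to 26.6 FPKM. Gamt makes creatine with a methyl group from S-adenosylmethionine, Ido2 and Aadat belong to tryptophan degradation, Dhtkd1 and Hykk to lysine degradation, and Ppm1k is the phosphatase that activates the branched-chain keto acid dehydrogenase. Aldh1l1 oxidises formyl-tetrahydrofolate.

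The 3 genes that fell by 2-fold belong to synthesis rather than breakdown: Psat1 of serine synthesis with a change of -1.18 in log2 (SE 0.17, adjusted p = 0.000165), Asns (asparagine synthetase) with -1.12 (SE 0.22, adjusted p = 0.0011) and Aldh18a1 of proline synthesis with -1.11 (SE 0.16, adjusted p = 0.00014). Under median-ratio scaling these were -1.03, -0.95 and -0.96. Phgdh and Psph, the serine synthesis enzymes on either side of Psat1, were named after their values were seen, and fell as well, with values of -0.59 (adjusted p = 0.0377) and -0.65 (adjusted p = 0.00387). Under median-ratio scaling Phgdh was at -0.47 and no longer called (adjusted p = 0.0945), and Psph was at -0.50 (adjusted p = 0.0265). All of these had control means of 2.96 to 9.83 FPKM, low beside those of most members.

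The 38 members had 68 listed transcripts, and 18 members had more than 1. By the 2-fold criterion 12 transcripts rose (1.24% of all 29883 transcripts) and 0 fell (1.99%), and at the adjusted threshold 33 rose (5.73% of all transcripts) and 4 fell (14%). Those of the 2-fold members were Hpd-201, Hgd-203, Tdo2-201, Afmid-201, Bhmt-201, Cth-201 and Prodh-201, which held most or all of the FPKM of their genes. The remaining 5 belonged to other members. Of these, Kynu-202, Sds-202 and Mat1a-202 held a minor share of their genes, while Gpt was divided over 4 transcripts, with Gpt-203 at 23.1% and Gpt-205 at 26.2% of its FPKM in the PZH mice. Kynu-202 had a change of 1.37 in log2 (SE 0.25, adjusted p = 0.00239), Sds-202 of 1.23 (SE 0.16, adjusted p = 0.000352), Gpt-203 of 1.47 (SE 0.26, adjusted p = 0.00225) and Mat1a-202 of 1.01 (SE 0.10, adjusted p = 0.000105). Gpt-205 had 1.14 (SE 0.48), with an adjusted p of 0.128. The share of a gene held by a transcript was tested for 29 transcripts of 18 members, and in 0 of them was the adjusted exact permutation p under 0.05, with 4 under it before adjustment. The lowest unadjusted p was that of Kynu-202, which held 17.2% of Kynu in the PZH mice and 11.1% in the controls (exact permutation p = 0.026, adjusted p = 0.33).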

How the data were processed

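The authors obtained reads of 150 bp, applied Trimmomatic, aligned to GRCm38 (HISAT2 2.1.0) and quantified the transcripts of Ensembl release 95 (StringTie 1.3.5), from strand-specific libraries depleted of ribosomal RNA. They deposited FPKM per transcript, with 29883 protein-coding transcripts in 12 columns, 1 a mouse, and 29876 were assigned to 14188 genes by GENCODE M21. FPKM of the transcripts of a gene was summed. Depth is not part of the table. A step between low FPKM values was sought within a preset range of depths, as the one with the largest excess of values near its first multiples. If the step is 1 fragment, it gives 21390000 to 35560000 fragments a mouse. It rested on 15 to 30 transcripts a mouse, and depths outside the range could not be returned. Only 6.38% to 14.0% of low values were whole multiples of it (within 1% of a fragment). For that reason no counts or counting intervals are used. The separate table of long noncoding transcripts was not used.

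Log2(FPKM + 1) was fitted with limma 3.58.1 in R 4.3.3 over all genes (and, separately, all transcripts) without a further filter or covariates, with Benjamini-Hochberg adjustment. The lowest sum of a transcript over the 12 mice was 1.0 FPKM in the deposited values. Shares of all genes are therefore shares of the genes in that table. In simulated data for this comparison, 94% of 200 genes changed by 1 on the log2 scale were recovered among 14188 and 15 unchanged genes were called. The simulated noise was independent between genes, and as many changes went up as down. In the data 12.7% of genes were called higher and 32.1% lower, so recovery and false calls may differ there. Ratios and transcript shares were compared by two-sided exact permutation tests. The remaining computations were run in Python (3.11.15), using scipy 1.17.1, numpy 2.4.6, pandas 2.3.3 and, for plots, matplotlib 3.10.9. Symbols were matched with RefSeq synonyms, and of the other pathway genes Bcat1 and Tdh, and of the markers Slc1a2 and Cftr, were not matched. Windows were checked against GENCODE transcripts, and 30 of 31 members had a window that ended in a transcript on its strand.

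The members, gene lists, ratios and motifs were chosen with earlier results of these data known, and the marker lists were taken from general knowledge. All 38 members are given. Per-group values are printed for members called by the 2-fold criterion, for members called lower and for the largest change in each substrate group, and other pathway genes are named by the 2-fold criterion or as partners in a ratio. Of the genes that this rule gives, 1 is not reported here. As alternatives, each mouse was left out, the mouse number was added as a replicate block, the most abundant transcript replaced the gene sum, values were scaled by median ratios or to an equal FPKM sum, limma was given a mean-variance trend, genes with a mean FPKM under 1 were dropped, and the pseudocount was set to 0.1. The sources say that libraries came from separate mice and give no batch. The check of the replicate numbers is given with the alternatives.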

Additional observations from a re-analysis of the deposited data

Results flagged for a closer look

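In 92 combinations of a gene or ratio with a group of 6 mice, the gap between an extreme mouse and its nearest neighbour was divided by the range of the group. Of these, 5 exceeded the critical value of Dixon's test for 6 mice. That share is close to the 5% that chance gives, so the mice named below are not shown to be aberrant. Control 6 stood above the other controls in Gpt2 (ratio 0.845) and in Ahcy (0.680). PZH 2 stood below the other PZH mice in Bckdha (0.632) and in Aldh4a1 (0.635), and PZH 1 stood below them in Got2 (0.657). Without control 6 the fall of Gpt2 was not called, Bckdha and Got2 became called as higher, and without PZH 1 Got2 was called as well (adjusted p = 0.0036 in limma).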

How the results depend on the processing

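The 28 members called higher numbered 25 to 29 with each mouse left out in turn, and the median log2 fold change stayed between 0.62 and 0.72. Median-ratio scaling gave a median of 0.86, 14 members higher by 2-fold and 1 lower at the adjusted threshold, by its construction a shift of all genes. An equal FPKM sum gave 4 members higher by 2-fold. The 4 members called lower were 2 with a pseudocount of 0.1, 2 with the most abundant transcript and 2 to 4 without single mice, and the 7 higher by 2-fold were 4 to 9. Signs turned for members near 0: Got1 was 0.17 under median-ratio scaling and -0.12 to 0.067 without single mice, and Ftcd was -0.024 with an equal FPKM sum and -0.064 to 0.068 without single mice. Without single mice the log2 difference of Bhmt:Bhmt2 ranged from -0.019 to 0.31, that of Bckdha:Bckdhb from -0.11 to 0.018 and that of Mccc1:Mccc2 from -0.26 to -0.13, the last with an exact permutation p of 0.0433 without control 1. The causes were not tested.

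Of the 32 calls 26 held with every mouse left out in turn (limma, adjusted p). Ahcy was lost without any mouse but PZH 2 or control 6 (0.0515 to 0.0913), Gldc without any but PZH 4, PZH 6 or control 5 (0.0595 to 0.094), Gpt2 without any but PZH 5, PZH 6, control 3 or control 4 (0.0521 to 0.0891), Mccc1 without PZH 1, 4, 5 or 6 or control 1, 2 or 5 (0.0549 to 0.0712), Hibadh without PZH 4 or 6 or control 1 or 4 (0.0519 to 0.057), and Haao without control 5 or 6 (0.0505 to 0.0509). Got2 was gained without PZH 1 or control 6 (0.0036 to 0.0417) and Bckdha without PZH 2 or control 6 (0.0099 to 0.0397).

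The mouse numbers are shared by the groups, but same-numbered mice did not deviate together (r of -0.073 to 0.076, and 1 of 6 PZH mice correlated best with its own number). With the replicate block 27 members were called higher, 4 lower and 7 higher by 2-fold, where the log2 fold change of Ivd (adjusted p = 0.0666) and the log2 fold change of Mccc1 (0.0865) lost their calls and the log2 fold change of Got2 gained one (0.0175), and the ratio differences of Gpt:Gpt2, Sds:Sdsl, Cth:Cbs and Mat1a:Mat2a had the smallest p of the exact sign-flip test, 0.0313. Over all alternatives, 649 of the values of single members kept direction and side of the threshold, 53 lost the call, 9 gained it and 11 reversed.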
